A study of Mus musculus with 34 samples.

Results

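Mouse kidney progenitor assembloids (mKPA) were profiled by bulk RNA sequencing after 3 days (D3, 2 libraries) and 7 days (D7, 2 libraries) of culture, and the D7 libraries were compared with the D3 libraries over all genes. Members were chosen by sample title, which gave 4 of the 34 libraries of the series. An assembloid is a culture put together from kidney progenitors that had first been expanded in vitro. The sources used here do not give which progenitor populations went into an assembloid, nor their proportions. Both groups carry the Hoxb7-venus genotype, a reporter allele in which the Hoxb7 promoter drives the fluorescent protein Venus in ureteric epithelium, and both were kept in Stage-based media-v2. Whether the composition of this medium was changed between D3 and D7 was not given in the sources used here, so day and composition cannot be told apart. The other groups used here are D13 (2 libraries) and D19 (2 sets of 2 libraries, r1 and r2) assembloids of the same genotype and medium, and D3 and D7 explants (2 libraries each), which are Hoxb7-venus E12.5 kidneys cultured in Stage-based media-v1. No label says that replicates came from separate cultures. P-values therefore measure only the spread between replicate libraries, pooled over all 34 libraries of the series, and this spread may be technical.

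The mammalian kidney is built from reciprocal signals between the branching ureteric bud and the mesenchyme around its tips. Nephron progenitors of the cap mesenchyme, kept by the transcription factor Six2, are induced by Wnt signals of the bud to form vesicles that are patterned by Notch signalling and Lhx1 into podocytes, proximal tubule, loop of Henle and distal tubule. The bud forms the collecting duct, whose principal and intercalated cells handle water, salt and acid, and the lining of ureter and bladder is urothelium. Stromal progenitors give rise to interstitial fibroblasts, mural cells of vessels and much of the collagen matrix.

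Values are the authors' TMM-normalized signal, written below simply as the signal of a gene in a library. The 4 libraries had column totals of 966741 to 973823, and the lowest value of a column, called 1 step, was 0.0441 to 0.0539. Column totals divided by the step implied a depth of 18069901 to 21900009 steps per library. Log2 values of the 2 D3 libraries correlated at 0.9939 and those of the 2 D7 libraries at 0.9954, and mitochondrial genes held 3.08 to 3.98% of the signal. Defining markers were read first. Six2, the nephron progenitor regulator, was 196 and 127 at D3 and 159.9 and 166 at D7. Ret, the receptor of the ureteric tip, was 223 and 185 at D3 and 173 and 181 at D7, and Foxd1, the regulator of stromal progenitors, was 45.01 and 27.7 at D3 and 28.1 and 32.0 at D7. All 3 genes were far above 1 step in every library. Pecam1, an endothelial adhesion molecule, lay between 0.05 and 0.323 in the 4 libraries, so that its signal was below the pseudocount of 0.962 throughout. Ptprc, which marks white blood cells, was 5.90 and 5.01 at D3 and 6.97 and 7.97 at D7.

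The 2 D3 libraries differed from each other in ureteric and early tubule genes, which touches several results below. Replicate 2 had the higher signal of duct genes such as Foxa1, with 47.6 in replicate 1 and 77.0 in replicate 2. Hnf4a, the nuclear receptor of proximal tubule, stood at 0.0999 in D3 replicate 1 and 4.20 in replicate 2, while Six2 was higher in replicate 1. Results that lose their call when a library is left out are named beside their values.

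Between D3 and D7, 957 of 19264 genes tested were called (4.97%), with 792 higher (4.11%) and 165 lower (0.857%) at D7. A gene was called when the adjusted p of limma with Benjamini-Hochberg adjustment was under 0.05 and the log2 change was at least 1 in size. Changes are given as log2 change ± standard error, on the scale of log2(value + 0.962), which understates the change of low genes. The median called rise was 1.39 and the median called fall -1.26, while the median over all genes tested was -0.01. The fold threshold sets much of this count, since 3321 genes passed the adjusted p alone. An unadjusted p under 0.05 was reached by 5439 of the 19264 genes tested. In bulk samples a lower signal from fewer cells of a type and one from less RNA per cell cannot be told apart, and this holds for every cell type list below.

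**Figure D1:**
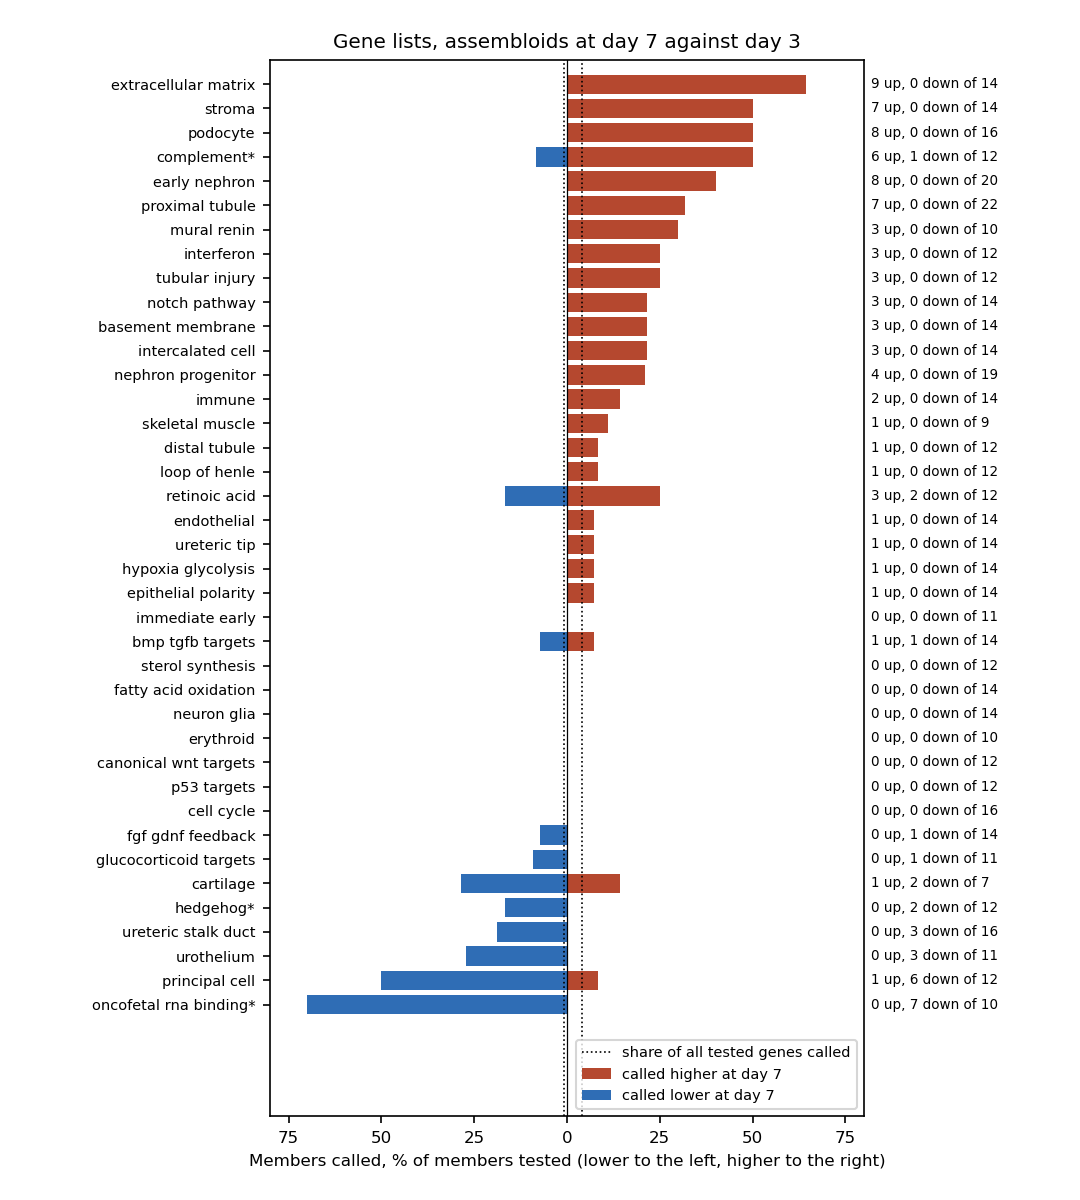
Share of the tested members of 39 gene lists that were called higher (red, to the right) or lower (blue, to the left) at D7 than at D3, in percent, with the counts at the right margin. Dotted lines give the shares over all genes tested, 4.11% higher and 0.857% lower, and an asterisk marks 3 lists that were put together after values had been seen. Extracellular matrix, with 9 of 14 members higher, stands at the top, and oncofetal RNA-binding genes, with 7 of 10 lower, at the bottom.

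Nephron progenitor genes had summed D7 levels within the D3 range, and 0 of them were called lower. Of 19 members tested, 4 were called higher and the list median was 0.00. The summed signal of the list was 2297 and 1773 at D3 and 2118 and 2184 at D7. Six2 had a log2 change of 0.05 ± 0.25. Itga8, an integrin subunit of the mesenchyme that the ureteric bud needs to invade, was 154 and 129 at D3 and 299 and 286 at D7, and rose by 1.05 ± 0.18 on the log2 scale. Cited1, a transcriptional cofactor of the least committed progenitors, was 5.90 and 3.34 at D3 and 13.8 and 10.3 at D7 (log2 change 1.25 ± 0.34, adjusted p = 0.0113). Crym, which binds thyroid hormone, and Traf1, an adaptor of TNF receptors, were the other members called, with log2 changes of 1.09 ± 0.24 and 1.34 ± 0.42. Without D3 replicate 2 none of these 4 kept its call, and adjusted p then ranged from 0.00529 for Itga8, whose log2 change was 0.92, to 0.241 for Traf1. Cited1 also lost its call without D7 replicate 1 (adjusted p = 0.133), and Traf1 without either D7 library (adjusted p of 0.107 and 0.138). Eya1, the phosphatase and cofactor of Six2, was 259 and 187 at D3 and 134 and 133 at D7, and its log2 change of -0.72 ± 0.24 did not reach the fold threshold. Meox2, a homeobox gene, was 28.5 and 16.5 at D3 and 9.89 and 11.5 at D7, with a log2 change of -0.97 ± 0.28; it was called without D3 replicate 2 (-1.34) and without D7 replicate 2 (-1.06).

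Genes of the early nephron, the renal vesicle and its S-shaped successor, were higher at D7. Of 20 members, 8 were called higher and 0 lower, and the list median was 0.86. Lhx1, the homeobox regulator of vesicle patterning on chromosome 11, bases 84409110 to 84416362 (mm39), was 4.90 and 14.2 at D3 and 29.7 and 42.5 at D7 (log2 change 1.95 ± 0.43, adjusted p = 0.0033). Papss2, which makes the sulfate donor for sulfation, was 7.04 and 10.7 at D3 and 54.3 and 48.6 at D7 (log2 change 2.44 ± 0.15, adjusted p = 7.4e-12), a ratio of group means of 5.79. Both groups stood well apart for Papss2, whereas the D3 libraries of Lhx1 differed widely from each other. Irx3, a homeobox gene of the intermediate tubule segments, was 1.30 and 4.15 at D3 and 10.2 and 15.2 at D7 (log2 change 1.98 ± 0.41, adjusted p = 0.00161), and Irx2 of the same family was 0.15 and 0.593 at D3 and 1.81 and 1.55 at D7 (log2 change 1.01 ± 0.29, adjusted p = 0.0136). Dkk1, a secreted Wnt inhibitor, was 1.05 and 1.94 at D3 and 4.46 and 7.57 at D7 (log2 change 1.49 ± 0.26, adjusted p = 0.000125). Pax8, a paired-box regulator of the induced mesenchyme, was 52.5 and 72.1 at D3 and 109.7 and 118 at D7; its log2 change of 0.87 ± 0.11 passed the adjusted p (1.59e-06) but not the fold threshold, which it passed without D3 replicate 2 (1.10). Wnt4, the signal that starts the transition from mesenchyme to epithelium, was 165 and 242 at D3 and 191 and 214 at D7, with a log2 change of 0.02 ± 0.20. Without D3 replicate 1, the library with the lower early nephron signal, the count was 5, and the log2 change of Lhx1 was 1.26 with an adjusted p of 0.0828. Without D3 replicate 2 the count was 12. Irx2 lost its call without D3 replicate 1 (adjusted p = 0.181) and without either D7 library (0.108 and 0.0504).

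Notch ligands and a Notch target were among these genes. Of 14 Notch pathway genes, 3 were called higher and 0 lower, with a median of 0.30, and these 3 are members of the early nephron list too. Dll1, a Notch ligand, was 4.60 and 13.1 at D3 and 19.8 and 27.5 at D7 (log2 change 1.46 ± 0.34, adjusted p = 0.00453). Jag1, the second ligand called, was 35.8 and 54.5 at D3 and 93.8 and 96.7 at D7 (log2 change 1.09 ± 0.18, adjusted p = 0.000124). Hey1, a transcriptional repressor that Notch induces, was 12.3 and 14.4 at D3 and 28.1 and 33.6 at D7 (log2 change 1.15 ± 0.15, adjusted p = 1.72e-06). The receptors Notch1, Notch2 and Notch3 had log2 changes of 0.38, 0.33 and 0.13 and were not called. Dll1 and Jag1 lost their calls without D3 replicate 1, with log2 changes of 0.79 for each and adjusted p of 0.128 and 0.00851, while Hey1 did not. Dll1 also lost its call without D7 replicate 2 (adjusted p = 0.0653) and with only the 4 libraries in the fit (adjusted p = 0.0808).

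Of 16 podocyte genes, 8 were called higher and 0 lower, with a median of 1.12, among them genes of foot processes and basement membrane. The 16 genes summed to 1332 and 1109.6 at D3 and 1385 and 1326 at D7. Podxl, the sialomucin that coats foot processes, was 8.94 and 5.82 at D3 and 53.8 and 41.4 at D7 (log2 change 2.55 ± 0.32, adjusted p = 9.24e-06). Clic5, an actin-linked protein of foot processes, was 0.25 and 0.593 at D3 and 6.44 and 4.71 at D7 (log2 change 2.24 ± 0.23, adjusted p = 9.45e-08). Both collagen chains of the mature glomerular basement membrane in the list rose, Col4a3 from 0.799 and 1.19 to 6.53 and 5.26 and Col4a4 from 2.65 and 2.80 to 13.4 and 12.1. Tcf21, a basic helix-loop-helix regulator of podocytes and stroma, was 86.0 and 93.02 at D3 and 259.6 and 252 at D7 (log2 change 1.51 ± 0.14, adjusted p = 1.15e-08). Synpo, which encodes the actin-binding protein synaptopodin, and Ptpro, a receptor phosphatase of foot processes, rose by 1.28 ± 0.18 on the log2 scale and 1.41 ± 0.29 on the log2 scale. In contrast Wt1, which both progenitors and podocytes express, was 216 and 201 at D3 and 179 and 186 at D7, and Nphs1, which encodes nephrin, was 39.2 and 33.6 at D3 and 49.5 and 37.1 at D7. Neither was called, with log2 changes of -0.19 ± 0.11 and 0.23 ± 0.23.

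**Figure D2:**
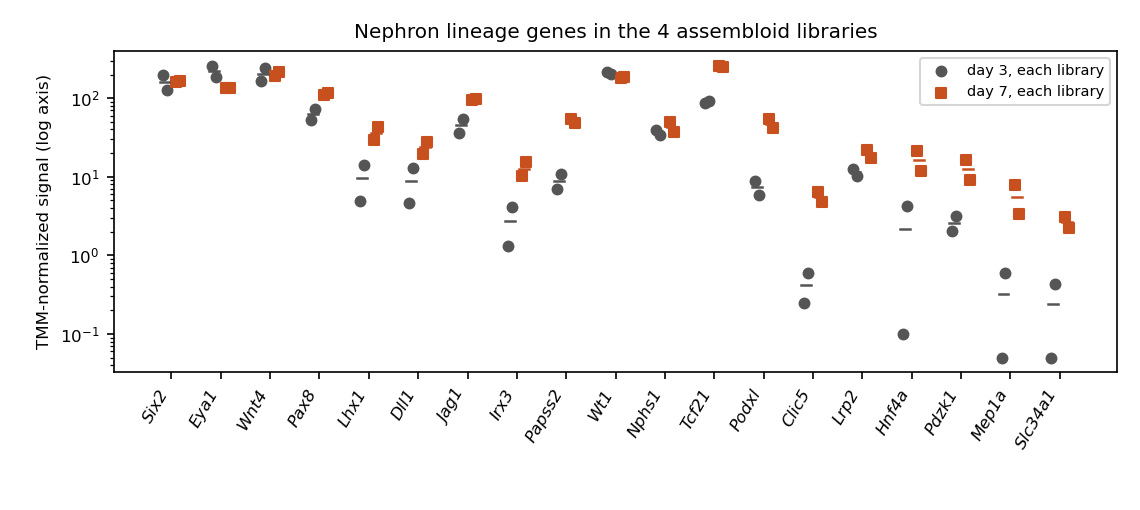
Signal (log axis) of 19 nephron lineage genes in each of the 2 D3 libraries (grey circles) and 2 D7 libraries (orange squares), with the group mean as a short line. Six2 and Wnt4 overlap between the days, while Papss2, Podxl, Clic5, Hnf4a, Pdzk1, Mep1a and Slc34a1 are separated between the days, and the D3 libraries of Hnf4a lie far apart.

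Proximal tubule genes were higher at D7, from a low D3 level. Of 22 members, 7 were called higher and 0 lower, with a median of 0.67, and the summed signal of the list was 68.0 and 73.8 at D3 and 196 and 139 at D7. Hnf4a, the nuclear receptor that directs proximal tubule differentiation (chromosome 2, bases 163348728 to 163414831, mm39), was 0.0999 and 4.20 at D3 and 21.1 and 11.9 at D7 (log2 change 2.85 ± 0.51, adjusted p = 0.000611). Enzymes and transporters rose too. Mep1a, a brush border metalloprotease, was 0.05 and 0.593 at D3 and 7.86 and 3.36 at D7 (log2 change 2.30 ± 0.30, adjusted p = 1.08e-05). Pdzk1, a scaffold of brush border transporters, was 2.02 and 3.20 at D3 and 16.3 and 9.05 at D7 (log2 change 1.90 ± 0.36, adjusted p = 0.000845). Slc34a1, the sodium-phosphate cotransporter, was 0.05 and 0.431 at D3 and 3.05 and 2.21 at D7 (log2 change 1.59 ± 0.26, adjusted p = 8.3e-05), and the water channel Aqp1 was 0.799 and 1.35 at D3 and 5.83 and 2.61 at D7 (log2 change 1.29 ± 0.22, adjusted p = 0.000182). D3 replicate 1 was at or near 1 step for Hnf4a, Mep1a and Slc34a1 while replicate 2 was not. With only the 4 libraries in the fit the count was 4, and Hnf4a and Aqp1 had adjusted p of 0.057 and 0.0617. Aqp1 also lost its call without D7 replicate 1, where its log2 change was 0.82. Lrp2, the endocytic receptor megalin, was not called.

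A promoter window of Pdzk1 is shown because it holds a string bound by HNF4 proteins, the family of Hnf4a. Whether Hnf4a acts on Pdzk1 here was not tested. RefSeq windows of 300 bases, 250 before and 50 after a gene start on GRCm38.p6, were found for 5 of the 7 genes called in the list, 7 windows in all. Of 8 strings searched on both strands 5 are spelled out here, and the other 3, which share letters, were in 0, 0 and 2 of the 7 windows and in 0.00913%, 0.399% and 7.1% of all windows. CAAAGTCCA is a core bound by HNF4 proteins, and AGGTCA is a half-site of nuclear receptors. The others were the homeodomain core TAATTA, the TATA box as TATAAA and the CCAAT box as CCAAT. The strings were first searched in the windows of 19 of 31 genes from several lists, and the proximal tubule genes were kept after those matches had been seen, so the matches are a selected description. The HNF4 core was in 1 of the 7 windows and in 0.475% of 32851 windows in all. The nuclear receptor half-site was in 1 window (16.3% of all), the homeodomain core in 2 (5.29%), the TATA box in 1 (13.6%) and the CCAAT box in 5 (37.4%). The first Pdzk1 window follows, 5′ to 3′ on the strand of the gene, with the HNF4 core, which begins at +15 from the start, in capitals. A match describes letters in a window and not a bound site.
Pdzk1, chr3:96829815-96830114, + strand: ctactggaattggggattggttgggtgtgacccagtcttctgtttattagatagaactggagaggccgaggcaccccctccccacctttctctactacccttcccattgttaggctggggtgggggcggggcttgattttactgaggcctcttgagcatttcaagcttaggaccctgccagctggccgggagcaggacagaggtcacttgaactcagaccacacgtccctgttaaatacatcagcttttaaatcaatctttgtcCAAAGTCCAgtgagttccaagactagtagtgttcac

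In the loop of Henle and distal tubule lists 1 of 12 members each was called higher (8.33%), beside 4.11% of all genes tested. With so few members such a count lies near that share. Cldn19, a claudin of the thick ascending limb, was the member called among 12 loop of Henle genes, at 0.4 and 0.431 at D3 and 3.62 and 1.90 at D7 (log2 change 1.40 ± 0.29, adjusted p = 0.000923). Tmem52b was the member called among 12 distal tubule genes, at 1.25 and 1.72 at D3 and 7.11 and 4.41 at D7 (log2 change 1.43 ± 0.32, adjusted p = 0.0033). Both lost their calls without D7 replicate 1, with adjusted p of 0.052 and 0.0716. The summed signal of the loop list was 10.9 and 13.2 at D3 and 24.6 and 21.3 at D7, and 11 of its 12 log2 changes were positive, with a median of 0.09. With a smaller pseudocount 3 genes of each of these lists were called higher, and with a larger one 0 genes of each.

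Ureteric tip genes changed little, while some duct genes fell. Of 14 tip members, 1 was called higher and 0 lower, with a median of -0.08. Ret had a log2 change of -0.20 ± 0.22, and Wnt11, the ligand that the tip secretes, was 11.8 and 11.05 at D3 and 10.8 and 9.87 at D7. Wnt6, the member called, was 1.30 and 1.56 at D3 and 5.39 and 5.61 at D7 (log2 change 1.44 ± 0.29, adjusted p = 0.00067). Of 16 stalk and duct members, 3 were called lower and 0 higher, against 0.857% of all genes called lower, with a median of -0.75 and 14 of 16 log2 changes negative. Wnt7b, a ligand that the stalk needs to form the medulla, was 65.8 and 98.1 at D3 and 31.5 and 30.3 at D7 (log2 change -1.35 ± 0.18, adjusted p = 1.81e-06). Elf5, an ETS-family transcription factor of duct cells, was 34.8 and 55.6 at D3 and 15.7 and 20.05 at D7 (log2 change -1.27 ± 0.23, adjusted p = 0.000193), and the keratin Krt19 was 131 and 160.3 at D3 and 63.7 and 80.5 at D7 (log2 change -1.01 ± 0.30, adjusted p = 0.0249). Gata3, a regulator of the nephric duct, was 107 and 155 at D3 and 59.5 and 69.5 at D7; its log2 change of -0.99 ± 0.21 missed the fold threshold, but passed it without D3 replicate 1 (-1.25) and without D7 replicate 2 (-1.10). The count rested on the D3 libraries. Without D3 replicate 1 it was 7 and without D3 replicate 2, the library with the higher duct signal, it was 1. Elf5 and Krt19 lost their calls without D3 replicate 2, with log2 changes of -0.94 and -0.86. Krt19 also lost its call without D3 replicate 1 (adjusted p = 0.0539) and without D7 replicate 1 (0.199).

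Genes of the collecting duct principal cell, the cell that reabsorbs sodium and water, fell. Of 12 members, 6 were called lower and 1 higher, with a median of -1.11, and the summed signal was 414 and 503 at D3 and 266 and 283 at D7. All 3 subunits of the epithelial sodium channel fell. Scnn1b was 113 and 138 at D3 and 40.9 and 47.8 at D7 (log2 change -1.48 ± 0.14, adjusted p = 1.64e-08), Scnn1g was 50.3 and 69.0 at D3 and 20.7 and 21.6 at D7 (log2 change -1.44 ± 0.13, adjusted p = 6.23e-09), and Scnn1a was 49.1 and 67.4 at D3 and 19.4 and 25.6 at D7 (log2 change -1.33 ± 0.15, adjusted p = 1.97e-07). Aqp3, a basolateral water channel, was 9.34 and 18.5 at D3 and 4.02 and 3.91 at D7 (log2 change -1.53 ± 0.25, adjusted p = 0.000116), and Aqp4, another, was 8.19 and 11.9 at D3 and 3.22 and 3.26 at D7 (log2 change -1.37 ± 0.26, adjusted p = 0.000354). Avpr2, the vasopressin receptor, was 4.36 and 4.75 at D3 and 0.617 and 1.48 at D7 (log2 change -1.49 ± 0.30, adjusted p = 0.000696). Every D7 library was below every D3 library for these 6 genes, but D3 and D7 libraries did not overlap for any of the 957 genes called. The exception was Aqp2, the apical water channel that vasopressin regulates, at 0.0999 and 0.97 at D3 and 2.03 and 2.81 at D7 (log2 change 1.23 ± 0.27, adjusted p = 0.00228), which was not called without D3 replicate 1 (adjusted p = 0.078) or with only the 4 libraries in the fit (0.0568). Among 14 intercalated cell genes 3 were called higher at low signal, Insrr, Rhbg and Atp6v0d2. Insrr, an alkali-sensing receptor of the insulin receptor family, was 3.30 and 2.75 at D3 and 13.6 and 9.47 at D7 (log2 change 1.63 ± 0.25, adjusted p = 1.72e-05). Rhbg, an ammonia transporter, was at 1 step in both D3 libraries and 1.85 and 0.816 at D7, which was at least 8.57-fold higher against a floor of 3 steps per library. Rhbg lost its call without D7 replicate 1 (adjusted p = 0.14), and Atp6v0d2, a proton pump subunit with a log2 change of 1.01 ± 0.27, without D3 replicate 1 (0.214) or D7 replicate 2 (0.111). Foxi1, the regulator that defines intercalated cells, was 0.749 and 0.916 at D3 and 0.839 and 0.601 at D7 and was not called.

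Some genes of urothelium, the lining of ureter and bladder, fell at D7. Of 11 members, 3 were called lower and 0 higher, with a median of -0.23. Foxa1, a pioneer transcription factor of ureteric and urothelial cells, was 47.6 and 77.0 at D3 and 16.1 and 18.3 at D7 (log2 change -1.76 ± 0.34, adjusted p = 0.000523). The uroplakins Upk3a and Upk3b were 17.1 and 25.8 at D3 and 8.21 and 8.62 at D7 (Upk3a) and 10.9 and 15.52 at D3 and 3.58 and 5.86 at D7 (Upk3b), with log2 changes of -1.23 ± 0.36 and -1.33 ± 0.34. Without D3 replicate 2, or without D7 replicate 1, the count of the list was 1, since both uroplakins lost their calls. Upk3a was not called without D7 replicate 2 either (adjusted p = 0.0718). Shh, the hedgehog ligand made by ureter and medullary duct epithelium (chromosome 5, bases 28661813 to 28672255, mm39), was 15.4 and 25.01 at D3 and 3.399 and 5.41 at D7 (log2 change -1.97 ± 0.38, adjusted p = 0.000505). Hhip, a target that binds and limits hedgehog ligands, was 8.94 and 13.9 at D3 and 4.64 and 5.36 at D7 (log2 change -1.03 ± 0.31, adjusted p = 0.021), and lost its call without D3 replicate 2 or either D7 library (adjusted p of 0.0647 to 0.262). These were the 2 members called of a hedgehog list of 12 that was put together after values had been seen, with a median of 0.01.

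**Figure D3:**
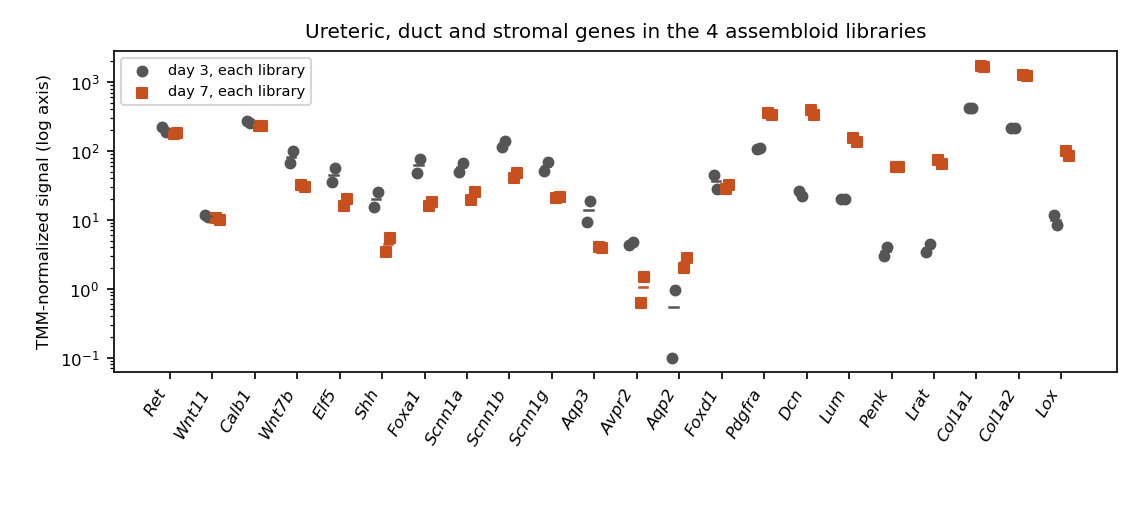
Signal (log axis) of 22 ureteric, duct and stromal genes in each of the 2 D3 libraries (grey circles) and 2 D7 libraries (orange squares), with the group mean as a short line. Duct genes from Wnt7b to Avpr2 are lower at D7, Aqp2 is higher, and from Pdgfra to Lox every D7 library lies above both D3 libraries, while Ret, Wnt11 and Foxd1 lie close between the days.

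Stromal genes were higher at D7, although Foxd1 was not called. Of 14 stromal members, 7 were called higher and 0 lower, with a median of 1.19, and the summed signal was 1633 and 1581 at D3 and 3773 and 3609 at D7. Dcn, the collagen-binding proteoglycan decorin (chromosome 10, bases 97315471 to 97354006, mm39), was 25.8 and 22.5 at D3 and 388 and 335 at D7 (log2 change 3.85 ± 0.24, adjusted p = 4.15e-10), a ratio of group means of 15.0. Penk, the opioid precursor proenkephalin that marks interstitial cells of the kidney, was 2.998 and 4.04 at D3 and 58.9 and 57.6 at D7 (log2 change 3.73 ± 0.23, adjusted p = 1.08e-10), a ratio of 16.6. Lum, the proteoglycan lumican, was 20.1 and 20.1 at D3 and 155 and 133 at D7 (log2 change 2.78 ± 0.17, adjusted p = 1.33e-11). Pdgfra, the growth factor receptor of fibroblasts, was 105 and 109 at D3 and 354 and 329 at D7 (log2 change 1.67 ± 0.17, adjusted p = 1.5e-07), and Tbx18, a T-box regulator of ureteric mesenchyme, was 4.504 and 4.51 at D3 and 19.2 and 14.1 at D7 (log2 change 1.67 ± 0.34, adjusted p = 0.00109). The D7 libraries were far from the D3 libraries for each of these and close to each other. Foxd1 had a log2 change of -0.23 ± 0.26 and was not called. Aldh1a2, the enzyme by which stroma makes retinoic acid, was 161 and 164 at D3 and 81.5 and 84.3 at D7, and its log2 change of -0.96 ± 0.11 passed the adjusted p but not the fold threshold. The count of stromal genes called was 7 or 8 when 1 library was left out.

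Matrix genes were higher too. Of 14 extracellular matrix genes, 9 were called higher and 0 lower, with a median of 1.39 and 14 of 14 log2 changes positive. Col1a2 and Col1a1, which form type I collagen, rose from 212 and 217 to 1282 and 1227 for Col1a2 and from 412 and 418 to 1726 and 1666 for Col1a1. Their log2 changes were 2.55 ± 0.15 and 2.03 ± 0.22. Col6a1, a chain of the microfibrillar type VI collagen, was 94.0 and 92.6 at D3 and 573 and 519 at D7 (log2 change 2.53 ± 0.16, adjusted p = 5.53e-11). Lox, which crosslinks collagen and elastin, was 11.7 and 8.30 at D3 and 98.1 and 83.7 at D7 (log2 change 3.08 ± 0.25, adjusted p = 1.64e-08). Among 14 basement membrane genes 3 were called higher, Nid1, Lama2 and Lama4, with log2 changes of 1.56 ± 0.17, 1.52 ± 0.21 and 1.17 ± 0.13. The summed signal of the matrix list was 3439 and 3394 at D3 and 8153 and 7943 at D7. Contractile genes of mural cells, the smooth muscle and pericytes of vessels, rose in part. Of 10 members 3 were called higher, Acta2 at 13.1 and 17.03 at D3 and 53.5 and 54.5 at D7, Tagln at 4.15 and 3.49 at D3 and 19.6 and 16.4 at D7 and Myh11 at 0.999 and 1.13 at D3 and 8.39 and 6.67 at D7, and their log2 changes were 1.79 ± 0.23, 1.99 ± 0.29 and 2.06 ± 0.30. Ren1, which encodes renin, had a mean of 0.29 at D3 and 0.40 at D7, below the pseudocount.

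Retinoid genes moved in both directions. Of 12 members, 3 were called higher and 2 lower. Lrat, which stores retinol as esters (chromosome 3, bases 82799886 to 82811281, mm39), was 3.397 and 4.42 at D3 and 74.6 and 63.8 at D7 (log2 change 3.85 ± 0.25, adjusted p = 1.59e-11), a ratio of group means of 17.7. Cyp26a1, which degrades retinoic acid, was 0.749 and 1.51 at D3 and 6.75 and 6.97 at D7 (log2 change 1.93 ± 0.29, adjusted p = 1.3e-05), whereas Cyp26b1 of the same family was 793 and 1005 at D3 and 441 and 481 at D7, with a log2 change of -0.95 ± 0.16 that missed the fold threshold but passed it without D3 replicate 1 (-1.12), without D7 replicate 2 (-1.01) and with quantile normalization (-1.05). Aldh1a1, a retinaldehyde dehydrogenase, was 29.8 and 15.0 at D3 and 55.5 and 53.4 at D7 (log2 change 1.32 ± 0.42, adjusted p = 0.0368). The retinoic acid binding proteins fell, Crabp2 from 47.6 and 49.4 to 12.9 and 15.54 (log2 change -1.71 ± 0.29, adjusted p = 8.83e-05) and Crabp1 from 7.14 and 7.599 to 2.52 and 3.46 (log2 change -1.09 ± 0.23, adjusted p = 0.000992). Aldh1a1 lost its call without D3 replicate 2, without either D7 library and with a smaller pseudocount, with adjusted p of 0.0655 to 0.35. Without D7 replicate 1 the log2 change of Crabp1 was -0.91, short of the fold threshold.

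Complement genes were read as a list of 12 that was put together after values had been seen, and 6 were called higher and 1 lower. C1s1 and C1ra, the proteases of the classical pathway, were 7.34 and 6.47 at D3 and 56.0 and 54.1 at D7 for C1s1 and 4.10 and 4.13 at D3 and 26.9 and 26.1 at D7 for C1ra, with log2 changes of 2.83 ± 0.13 and 2.44 ± 0.16. The central component C3 was 0.25 and 0.0539 at D3 and 2.96 and 1.40 at D7 (log2 change 1.46 ± 0.37, adjusted p = 0.00679), and lost its call without D3 replicate 2 (adjusted p = 0.0724) or D7 replicate 1 (0.133). Cfi, a protease that inactivates C3b, was the member that fell, at 11.1 and 9.27 at D3 and 4.46 and 4.31 at D7 (log2 change -1.06 ± 0.27, adjusted p = 0.00622), and it was not called without D3 replicate 1 (adjusted p = 0.0727). Of 12 interferon-response genes 3 were called higher, Oasl2, Ifi27l2a and H2-K1, with log2 changes of 1.60 ± 0.30, 1.41 ± 0.32 and 1.14 ± 0.21. Of 12 tubular injury genes 3 were called higher. Vcam1, an adhesion molecule, was 1.40 and 2.05 at D3 and 25.2 and 19.5 at D7 (log2 change 3.12 ± 0.17, adjusted p = 6.54e-13), and the matrix glycoprotein Tnc was 15.7 and 8.73 at D3 and 41.4 and 43.1 at D7 (log2 change 1.76 ± 0.24, adjusted p = 1.59e-05). Lcn2, a secreted iron-siderophore carrier, was 49.9 and 18.7 at D3 and 66.3 and 81.5 at D7 (log2 change 1.23 ± 0.37, adjusted p = 0.0221), and lost its call without D3 replicate 2 (adjusted p = 0.408) and without either D7 library. Havcr1, a receptor induced in injured tubules, was at 1 step in all 4 libraries. It and the other 8 members were not called.

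Oncofetal genes, here RNA-binding and chromatin proteins that are high in embryos and include many targets of let-7 microRNAs, fell. The list of 10 was put together after values had been seen, so its 7 members called lower and 0 higher are a description. Their median log2 change was -1.52, and the summed signal was 1406 and 1359 at D3 and 528 and 557 at D7. Hmga2, a chromatin architectural protein (chromosome 10, bases 120197180 to 120312375, mm39), was 545 and 508 at D3 and 118 and 131 at D7 (log2 change -2.08 ± 0.15, adjusted p = 5.53e-11), a ratio of D3 to D7 means of 4.24. Arid3b, an AT-rich DNA-binding protein, was 29.7 and 26.0 at D3 and 6.09 and 5.56 at D7 (log2 change -2.08 ± 0.23, adjusted p = 1.4e-07). The RNA-binding proteins Lin28b and Lin28a, which block let-7 maturation, were 4.35 and 4.74 at D3 and 0.221 and 0.401 at D7 for Lin28b and 2.40 and 1.89 at D3 and 0.132 and 0.15 at D7 for Lin28a, with log2 changes of -2.12 ± 0.21 and -1.49 ± 0.21. Igf2bp1 was 251 and 237 at D3 and 82.1 and 82.5 at D7 (log2 change -1.56 ± 0.13, adjusted p = 5.9e-10), and Igf2bp3 and the ubiquitin ligase Trim71 fell by 1.48 and 1.74 on the log2 scale. For each of these 7 genes both D7 libraries lay below both D3 libraries, and such separation held for all 957 genes called. The count was 7 whichever of the 4 libraries was left out.

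The proliferation, signalling and metabolic lists read here had 0 to 2 members called each, beside 4.97% of all genes tested. With 11 to 16 members a list, such counts lie near that share. Beside the counts below, 5439 of all 19264 genes tested had an unadjusted p under 0.05 by limma. None of 16 cell cycle genes was called by limma, although 16 of 16 log2 changes were negative with a median of -0.34, 11 had an unadjusted p under 0.05 and 5 passed the adjusted p alone. Mki67, a marker of cycling cells, was 559 and 541 at D3 and 453 and 459 at D7, and Rrm2, a subunit of ribonucleotide reductase, was 158 and 163 at D3 and 97.7 and 103 at D7, with log2 changes of -0.27 ± 0.13 and -0.67 ± 0.15. Of 12 canonical Wnt targets 0 were called by limma, with 5 at an unadjusted p under 0.05, and of 14 FGF and GDNF feedback genes 1 was called, the MAP kinase phosphatase Dusp5, which was 42.4 and 36.3 at D3 and 13.9995 and 15.1 at D7 (log2 change -1.38 ± 0.21, adjusted p = 2.28e-05). Inhba, a subunit of activin, was 7.09 and 4.69 at D3 and 23.8 and 19.4 at D7 (log2 change 1.74 ± 0.30, adjusted p = 0.000127), and the BMP antagonist Grem1 was 2.60 and 3.93 at D3 and 0.795 and 1.35 at D7 (log2 change -1.05 ± 0.24, adjusted p = 0.00235). These were the 2 members called of 14 in the BMP and TGF-beta list, and Grem1 lost its call without D3 replicate 2 (adjusted p = 0.0724) or D7 replicate 1 (0.0682). Of 11 glucocorticoid targets 1 was called lower, the zinc finger repressor Zbtb16, at 7.69 and 5.87 at D3 and 1.19 and 0.652 at D7 (log2 change -2.04 ± 0.24, adjusted p = 2.8e-07). Ndrg1, a stress-response gene, was the member called of 14 hypoxia and glycolysis genes, at 9.04 and 11.4 at D3 and 32.5 and 29.8 at D7 (log2 change 1.53 ± 0.13, adjusted p = 1.58e-09). None of 12 p53 targets, 11 immediate early, 12 sterol synthesis and 14 fatty acid oxidation genes was called by limma, and 4, 5, 3 and 1 of them had an unadjusted p under 0.05. Of 14 epithelial polarity genes 1 was called, Cldn2, a claudin of proximal tubule, at 0.05 and 1.62 at D3 and 6.14 and 3.06 at D7 (log2 change 1.73 ± 0.36, adjusted p = 0.00204), and it lost its call without D3 replicate 1 (adjusted p = 0.0585) or D7 replicate 1 (0.0565). The other 13 polarity genes had negative log2 changes short of the fold threshold, 10 of the 14 passed the adjusted p alone, and the list median was -0.46.

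Markers of other cell types were read as lists. The summed signal of 14 endothelial markers was 29.5 and 27.8 at D3 and 58.4 and 57.1 at D7, and 1 was called higher. It was Cldn5, a claudin of vessel walls, at 0.25 and 2.10 at D3 and 10.2 and 11.3 at D7 (log2 change 2.60 ± 0.36, adjusted p = 3.04e-05), while the defining gene Pecam1 had a log2 change of 0.01 ± 0.33 and Cdh5, an endothelial cadherin, was 1.95 and 1.72 at D3 and 4.11 and 4.31 at D7. The summed signal of 14 immune markers was 10.3 and 8.57 at D3 and 24.6 and 22.7 at D7, and 6 of 14 were at 1 step in all 4 libraries, among them C1qa, C1qb and C1qc. Only Adgre1 and Cd74 were called, both higher, and these 2 genes made most of the rise in the sum. The list median was 0.06, with 7 positive and 7 negative log2 changes. Adgre1, the macrophage receptor F4/80, was at 1 step in both D3 libraries and 4.503 and 4.26 at D7. Its D7 group mean was at least 28.1-fold higher against a floor of 3 steps per D3 library. Cd74, the invariant chain of class II antigen presentation, was 0.699 and 0.593 at D3 and 8.70 and 6.92 at D7 (log2 change 2.44 ± 0.27, adjusted p = 3.69e-07). Of 10 erythroid markers 6 were at 1 step in all 4 libraries, with a summed signal of 0.749 to 1.46. None of 10 erythroid and 14 neuron and glia markers was called by limma, with 1 of each at an unadjusted p under 0.05 (5439 of 19264 over all genes tested). The neuron and glia markers summed to 25.2 to 43.9. Of 7 cartilage markers tested, Hapln1, which links hyaluronan to proteoglycans, rose, at 2.15 and 3.13 at D3 and 42.5 and 38.4 at D7 (log2 change 3.54 ± 0.29, adjusted p = 2.01e-09), and Col2a1 and Col9a1, chains of cartilage collagens, fell, with log2 changes of -2.10 ± 0.20 and -1.42 ± 0.23. Of 9 skeletal muscle markers tested, the troponin Tnnt1 was called higher (log2 change 1.41 ± 0.25, adjusted p = 0.00016). Cartilage markers summed to 152 and 157 at D3 and 99.5 and 97.1 at D7, and Col2a1 alone held most of the D3 sums. Muscle markers summed to 154 and 101 at D3 and 135 and 138 at D7, while 4 of the 12 listed were at 1 step in all 4 libraries. Sums over different genes do not rank cell types. Whether such cells were present, and their part in the results above, was not tested.

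Among called genes whose higher group mean reached 10 pseudocounts, Pi15 had the largest rise. This secreted peptidase inhibitor (chromosome 1, bases 17672125 to 17701164, mm39) was 2.40 and 1.99 at D3 and 73.5 and 57.2 at D7 (log2 change 4.38 ± 0.24, adjusted p = 2.16e-12), a ratio of group means of 29.7. Lrat, Dcn and Penk were also among the 10 largest rises, as were a few transporters and a growth factor. The anion exchanger Slc26a7 was 4.30 and 2.16 at D3 and 56.9 and 50.9 at D7 (log2 change 3.76 ± 0.31, adjusted p = 1.29e-08). The glutamine transporter Slc38a5 was 0.999 and 0.862 at D3 and 21.5 and 24.1 at D7 (log2 change 3.65 ± 0.25, adjusted p = 3.07e-11). Igf1, insulin-like growth factor 1, was 2.60 and 5.12 at D3 and 73.5 and 41.0 at D7 (log2 change 3.59 ± 0.27, adjusted p = 7.67e-09), and Gria4, a subunit of AMPA glutamate receptors, was 1.35 and 1.24 at D3 and 25.5 and 24.5 at D7 (log2 change 3.52 ± 0.20, adjusted p = 1.34e-12). Both D7 libraries were above both D3 libraries for each of them, and D3 and D7 libraries were separated for all 957 genes called. By the same rule the 3 largest falls were those of Gsdmc2, Dusp9 and Gsdmc3. Gsdmc2 and Gsdmc3 are gasdermins, members of a family of pore-forming proteins. Gsdmc2 was 131 and 199.9 at D3 and 25.6 and 37.4 at D7 (log2 change -2.35 ± 0.30, adjusted p = 2.39e-06) and Gsdmc3 was 105 and 154 at D3 and 19.6 and 30.4 at D7 (log2 change -2.33 ± 0.49, adjusted p = 0.00177), but these genes are closely related copies on chromosome 15, and how reads were divided between them is uncertain. Dusp9, another MAP kinase phosphatase, was 58.1 and 63.1 at D3 and 11.5 and 10.98 at D7 (log2 change -2.33 ± 0.19, adjusted p = 6.51e-10). Col2a1 was 99.7 and 106 at D3 and 21.8 and 24.8 at D7 (log2 change -2.10 ± 0.20, adjusted p = 1.62e-08). Car8, a carbonic anhydrase relative without enzyme activity, fell by 1.95, the membrane protein Prom2 by 1.94 and the immunoglobulin-family receptor Igdcc3 by 1.89 on the log2 scale.

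The change over the same days was set beside that of v1 explants, and the difference between the changes was tested as an interaction. Culture type and medium go together in this comparison and cannot be told apart. In explants 906 genes were called (4.7%), 607 higher (3.15%) and 299 lower (1.55%). The changes differed for 875 genes (4.54%), 460 more positive (2.39%) and 415 more negative (2.15%) in assembloids. Of the 792 genes that rose in assembloids, 234 were called higher and 23 lower in explants, and of the 165 that fell, 29 were called lower and 17 higher.

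The early nephron list had median log2 changes of opposite sign, 0.86 in assembloids and -1.055 in explants, although not every member did. Of 20 members, 8 were called higher in assembloids and 9 lower in explants, and the difference was called more positive for 13. Lhx1 was 76.7 and 67.4 in D3 and 9.55 and 7.13 in D7 explants, opposite to its course in assembloids, and the changes differed by 4.93 ± 0.61, adjusted p = 3.19e-05. Papss2 was 52.3 and 53.8 in D3 and 65.2 and 60.5 in D7 explants, so that its D7 signal in assembloids came near the explant signal of either day, and the changes differed by 2.20 ± 0.22, adjusted p = 1.57e-07. Of 14 Notch genes 7 were called lower in explants and 8 had a more positive change in assembloids. Jag1 was 123 and 95.1 in D3 and 43.4 and 40.3 in D7 explants, and the changes differed by 2.44 ± 0.26, adjusted p = 1.01e-06. Duct genes showed the reverse. Of 12 principal cell genes 5 were called higher and 1 lower in explants, and 9 had a more negative change in assembloids. Aqp3 was 9.92 and 8.11 in D3 and 40.9 and 32.8 in D7 explants (difference of the changes -3.44 ± 0.36, adjusted p = 9.52e-07), and Scnn1b was 54.1 and 43.0 in D3 and 94.2 and 86.6 in D7 explants (difference of the changes -2.37 ± 0.20, adjusted p = 1.87e-08). Of 16 stalk and duct genes 9, and of 11 urothelial genes 7, had a more negative change in assembloids; the 7 urothelial genes include Upk3a, at 8.13 and 10.6 in D3 and 54.0 and 56.0 in D7 explants (difference of the changes -3.68 ± 0.50, adjusted p = 2.86e-05). Shh was 7.48 and 10.2 in D3 and 21.1 and 19.4 in D7 explants (difference of the changes -3.10 ± 0.53, adjusted p = 0.00038), and Gsdmc2 was 2.28 and 1.52 in D3 and 13.4 and 7.44 in D7 explants (difference of the changes -4.30 ± 0.43, adjusted p = 3e-07).

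**Figure D4:**
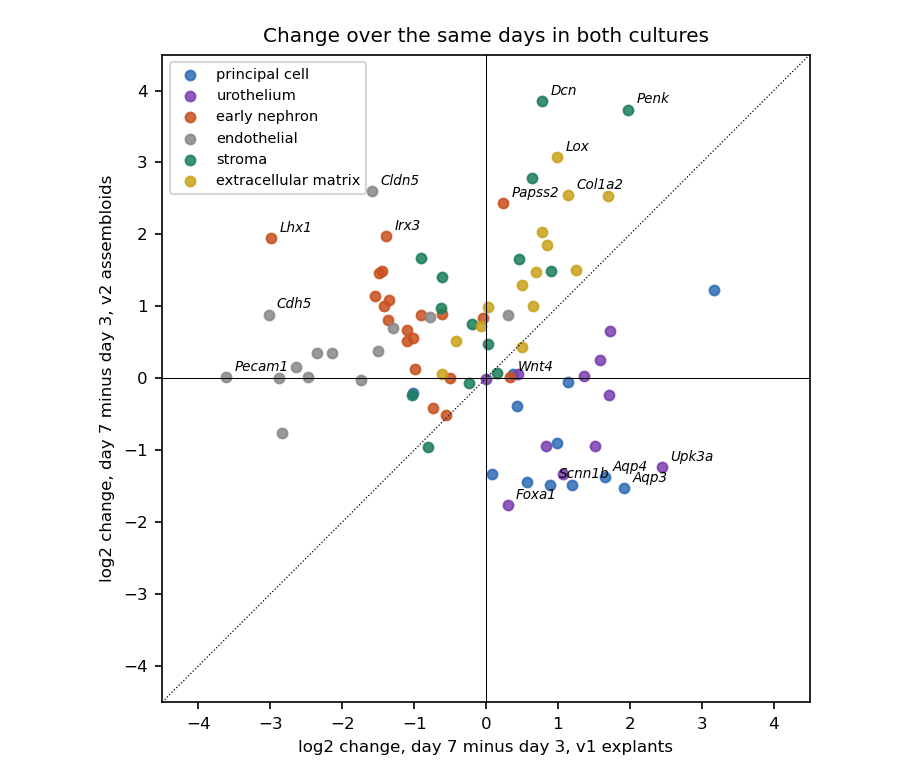
Log2 change from D3 to D7 in v2 assembloids (vertical axis) against that in v1 explants (horizontal axis) for the tested members of 6 lists, 1 point a gene. The dotted diagonal marks equal change. Early nephron genes (orange) lie mostly at the upper left, principal cell and urothelial genes (blue and purple) at the lower right, and stromal and matrix genes (green and yellow) mostly above the diagonal.

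Endothelial markers fell in explants and were low on both days in assembloids. They summed to 600 and 513 in D3 explants and 133 and 162 in D7 explants, 12 of 14 were called lower there, and the change of 12 was more positive in assembloids. Cdh5 was 167 and 141 in D3 and 15.1 and 21.5 in D7 explants (difference of the changes 3.91 ± 0.43, adjusted p = 4.57e-06). Apln, a secreted ligand made by endothelial tip cells, was 58.6 and 38.5 in D3 and 2.27 and 2.17 in D7 explants and in assembloids 1.65 and 1.78 at D3 and 1.72 and 3.16 at D7, and the changes differed by 4.25 ± 0.40, adjusted p = 6.4e-08. Stromal genes started lower in assembloids. Of 14 members 7 had a more positive change, and the list summed to 1633 and 1581 in D3 assembloids against 2877 and 3254 in D3 explants. Dcn was 163 and 231 in D3 and 356 and 314 in D7 explants, and its D7 signal in assembloids, 388 and 335, lay close to these D7 values. The changes of Dcn differed by 3.07 ± 0.34, adjusted p = 5.06e-06. Oncofetal genes fell in both cultures, with 6 of 10 called lower in explants and a more negative change in assembloids for 2. Hmga2 was 180.1 and 209.8 in D3 and 49.2 and 50.04 in D7 explants, and the changes differed by -0.13 ± 0.21, adjusted p = 0.872. Ace, angiotensin-converting enzyme of the brush border, was 14.8 and 27.2 at D3 and 8.03 and 6.12 at D7 in assembloids and 9.47 and 7.77 in D3 and 32.3 and 33.8 in D7 explants (difference of the changes -3.23 ± 0.25, adjusted p = 8.21e-09). Its fall in assembloids (log2 change -1.40 ± 0.18, adjusted p = 1.72e-06) lost its call without D3 replicate 2, where its log2 change was -0.99. Rps3a3 is listed as a processed pseudogene of a ribosomal protein gene that has near-identical copies, so its values are uncertain. It was 135 and 184 in D3 and 3.87 and 3.87 in D7 explants, with a difference of 4.37 ± 1.23, adjusted p = 0.0376 that was not called when any 1 of the assembloid or explant libraries was left out.

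Levels at later days place the D3 to D7 step within the culture, as a description with no test. Over the 10 assembloid libraries the first principal component held 70.3% of the variance and ordered the days, from -72.5 and -68.1 at D3 and -36.7 and -40.0 at D7 to -5.97 and 0.181 at D13 and 53.4 to 60.01 at D19. Hnf4a climbed further, to 29.8 and 25.03 at D13 and 112 to 126 in the 4 D19 libraries. Oncofetal genes kept falling, and Hmga2 was 54.3 and 53.6 at D13 and 16.8 to 25.1 in the 4 D19 libraries. Principal cell genes turned back up. Aqp3 was 6.90 and 5.31 at D13 and 30.8 to 44.2 in the 4 D19 libraries, above both D3 libraries in every D19 library, and Aqp2 was 23.3 and 31.8 at D13 and 123 to 182 in the 4 D19 libraries, whereas Scnn1b was 57.1 and 60.9 at D13 and 70.3 to 77.4 in the 4 D19 libraries, still below both D3 libraries. Lrat peaked in between, at 103 and 130.2 at D13 and 8.05 to 22.1 in the 4 D19 libraries, and Slc38a5, high at D7, was 8.93 and 15.1 at D13 and 0.699 to 2.30 in the 4 D19 libraries. Gsdmc2 and Upk3a did not return, and Upk3a was 0.0535 and 0.177 at D13 and 0.0537 to 0.0576 in the 4 D19 libraries. Six2 was 158 and 161 at D13 and 45.7 to 76.7 in the 4 D19 libraries and Ret was 184 and 172 at D13 and 19.8 to 28.9 in the 4 D19 libraries, so that both progenitor markers lay near their D7 values at D13 and were lower in every D19 library.

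**Figure D5:**
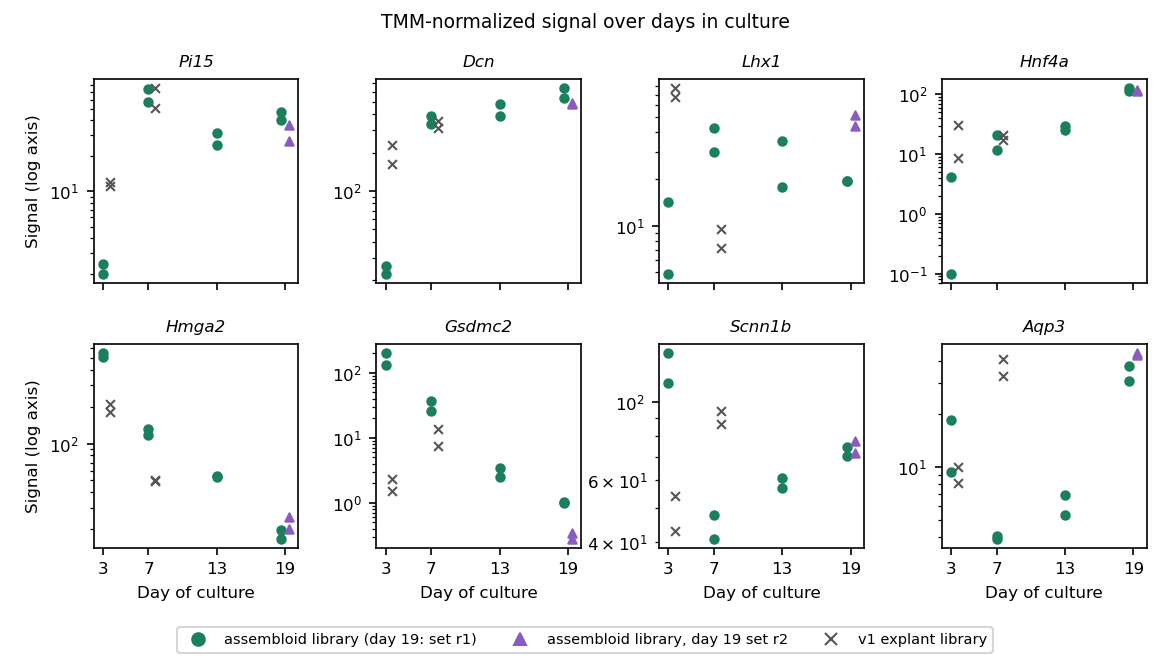
Signal (log axis) of 8 genes over days of culture in assembloid libraries (green circles, with purple triangles for the r2 set of D19) and in v1 explants (grey crosses, drawn slightly to the right) at D3 and D7. Hmga2 and Gsdmc2 fall at each step in assembloids, Hnf4a climbs, Aqp3 dips at D7 and recovers, and the explants of Lhx1, Gsdmc2, Scnn1b and Aqp3 move the other way between D3 and D7.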

How the data were processed

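Per the labels' protocols, NovoGene made the libraries from RNA extracted with Zymo Research kits. The authors deposited 1 table of TMM-normalized expression signal, per the name of the table; STAR 2.7.8a, Partek and the builds mm39 and mm10 are named in the submitters' processing notes. The counter, strand setting and exact scaling were not given in the sources used here. Gene coordinates fit mm39 (starts were equal for 473 of 22685 genes that an mm10 annotation also lists). The table held 23331 genes, 0 zero values and 0 columns of other samples, and columns were matched to samples through the sample descriptions. Of values up to 20 steps in the 4 libraries 90.8 to 91.4% were whole multiples within 0.1 step, which is too few to recover reads, and a count test was left out.

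Values were tested as log2(value + 0.962), the pseudocount being 1 ppm of the median column total, for the 19264 genes at or above it in 2 of 34 libraries. With 2 libraries a group, the fit (limma 3.58.1 in R 4.3.3, trend and robust moderation) used 17 group means over all 34 libraries, with 17 residual degrees of freedom. Replicates were compared before averaging, with values in steps taken as if they were counts. The chi-square over degrees of freedom was then 3.64 to 34.9 over the 17 pairs. Since reads were not recovered, this cannot settle whether a pair lay within sampling noise. Floors and bounds cover counting error only.

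The compared groups, the 36 gene lists (479 genes) and the rules were chosen with earlier results of these data known, and 3 further lists (34 genes) after values had been seen. The naming rule takes, among called genes with an assigned symbol and a higher group mean reaching 10 pseudocounts, the 10 largest rises and 10 largest falls, the 5 largest differences of either sign from the explants, and up to 4 members a list; further members were named after their values had been seen. Lists are given by counts and medians, with no set test. Promoter windows are RefSeq's, on GRCm38.p6. Alternatives covered the pseudocount, filter, scaling, samples in the fit, moderation, fold threshold, replicate block and leaving out each library. Some results that these rules cover are not reported here.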

Additional observations from a re-analysis of the deposited data

Results flagged for a closer look

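For 875 genes the change from D3 to D7 differed between assembloids and v1 explants by the interaction test of limma. Culture type and medium differ together between these groups. Among genes that the naming rule takes, the log2 change was more positive in assembloids by 4.93 for Lhx1, 4.37 for Rps3a3, 4.25 for Apln, 4.18 for Cldn5 and 3.91 for Cdh5. For Lhx1 the D7 libraries lay above the D3 libraries in assembloids and below them in explants, while for Apln the difference lay in the explants, which went from 58.6 and 38.5 to 2.27 and 2.17. The difference for Rps3a3, listed as a processed pseudogene, was not called when any 1 of the 8 libraries was left out, with adjusted p of 0.0706 to 0.127. The log2 change was more negative in assembloids by -4.30 for Gsdmc2, -3.99 for Gsdmc3, -3.68 for Upk3a, -3.44 for Aqp3 and -3.23 for Ace. In each of these 5 genes the D7 libraries lay below the D3 libraries in assembloids and above them in explants. No group held 4 or more libraries, so single outlying libraries were not tested.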

How the results depend on the processing

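A pseudocount 4 times as large gave 473 genes called between D7 and D3 (403 higher, 70 lower) and 550 differences from the explants (302 more positive, 248 more negative), and the calls of 26 of the genes examined singly were lost with it. The adjusted p alone gave 3321 genes (1932 higher, 1389 lower) and 1335 differences (698 and 637). Leaving out 1 library gave 853 to 1006 genes called (712 to 792 higher, 135 to 227 lower) and 644 to 876 differences (362 to 428 more positive, 260 to 454 more negative). The lowest of these, 260 against 415, was without D3 assembloid replicate 2. Under the other alternatives counts over all genes stayed within 1.5 times of those reported. Some list counts did not: with the smaller of the other 2 pseudocounts, loop of Henle, distal tubule and hypoxia genes went from 1 to 3 called higher, endothelial genes from 1 to 4, interferon genes from 3 to 5 and immediate early genes from 0 to 1. With the larger pseudocount some counts called higher fell, among them nephron progenitor genes from 4 to 1, proximal tubule genes from 7 to 4 and intercalated cell genes from 3 to 1. Ureteric tip, loop of Henle, distal tubule, epithelial polarity and principal cell genes then went from 1 to 0 called higher. Quantile normalization gave 864 calls, of which 76.97% were higher, against 82.76%. Of 159 single-gene results computed, 108 kept direction and call in every alternative, 9 reached a call in at least 1, and 5 changed sign, all of them uncalled: Pecam1 (-0.0076 with quantile normalization, -0.16 to 0.19 when 1 library was left out), and, when 1 library was left out, Foxd1 (-0.57 to 0.11), Wnt4 (-0.26 to 0.29), Six2 (-0.26 to 0.36) and Foxi1 (-0.20 to 0.0063). Why these values moved was not tested. A replicate block gave 959 genes called (794 higher, 165 lower) and 880 differences (465 and 415), and it changed the call of the Rps3a3 difference (adjusted p = 0.0596) and of no other gene named here, while 1 neuron and glia gene was called with it. Deviations of same-numbered libraries correlated at 0.0556 in assembloids and -0.0438 in explants over 11016 genes, so the numbers were not taken to pair them. Genes near 1 step cannot be ranked at this depth.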
